A study of Mus musculus with 13 samples.

Results

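Mouse primary cortical neurons that had been exposed to 10 nM rotenone for 24 h (3 arrays) were compared with neurons exposed to the same dose for 15 h (3 arrays), out of 13 arrays in the study. Every array held RNA from cultures of fetal cortex of Swiss albino mice, taken at gestation day 15-16 and used on day 5 of culture. No genotype or transgene separates the groups. In their treatment labels the 15 h and 24 h groups differ only in how long the drug was present. The remaining arrays held neurons exposed to rotenone for 8 h (n = 3) and neurons given the vehicle (n = 4), and these share the model for the spread between arrays. The members are all genes detected on at least 3 of the 13 arrays, 11039 genes, each read from its brightest probe on an Illumina mouse bead array. The labels do not say whether replicates were grown as separate cultures. Each p-value here therefore reflects the spread between these samples alone, and that spread may be technical.

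Rotenone is a plant-derived inhibitor of complex I, the first enzyme of the mitochondrial respiratory chain, and it is widely used to model the loss of neurons seen in Parkinson disease. Cells under mitochondrial stress commonly switch on the integrated stress response, in which the transcription factors ATF4, ATF3 and CHOP raise genes of amino acid supply and stress secretion. They also commonly switch on the antioxidant programme driven by NRF2. Cortical cultures taken from fetal mice hold glutamatergic neurons together with GABAergic interneurons, oligodendrocyte precursors, astrocytes and some microglia, each marked by its own transcription factors and surface proteins. An array of bulk RNA cannot tell fewer cells of a type apart from less RNA of its genes per cell, and this holds for every marker below.

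The labelled cell type was checked against neuronal markers, and the synaptic gene Syt1 and the glutamate transporter gene Slc17a6 were detected on every array. All 16 glutamatergic markers looked for were among the genes tested, and 11 of 16 GABAergic markers on the array. Mean bead signal before normalization ran from 325 to 405 in controls, 340 to 403 at 8 h, 255 to 287 at 15 h and 222 to 259 at 24 h, while the share of probes detected lay between 50.2% and 53.2% on every array. Replicate 1 at 15 h stood apart. The second principal component placed it at −31.5 and the other 15 h arrays at −11.0 and −10.4. On the first component its score of 35.0 fell between those of the other 15 h arrays (24.7 and 24.4) and those of the 24 h arrays (39.3 to 40.5). It correlated with its group at 0.975 on average, and the other 15 h arrays with theirs at 0.987 and 0.986. The array named for each sample in the labels was not the array with identical signals in the gene profile, which for all 13 samples was another replicate of the same group. The groups are therefore unchanged, but 2 assignments of arrays to chips exist. By identical signals, replicate 1 was the only 15 h array on its chip, together with 24 h replicates 1 and 2.

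Between 15 h and 24 h, 1354 of 11039 genes rose (12.3%) and 1124 fell (10.2%), together 2478 (22.4%), at a Benjamini-Hochberg adjusted p under 0.05 from limma. Changes of at least 1.5-fold were called for 478 genes that rose (4.33%) and 421 that fell (3.81%). All 3 arrays at 24 h lay above all 3 arrays at 15 h for 2235 genes (20.2%) and below them for 2100 (19.0%). The balance of the directions rested on the scaling between arrays. Scaling each array to the same median gave 601 genes higher (5.44%) and 1219 lower, no scaling gave 408 and 1259, and the authors' normalized values gave 686 and 1096. The median change of all genes was −0.0045 on the log2 scale in the main scaling, −0.055 with median scaling, −0.10 with no scaling and −0.036 in the authors' values, and changes below are relative to the first of these. Of the 1354 rises, 601 were also called with median scaling, and of the 1124 falls, 970.

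Chip and single arrays moved these counts further. With the labels' chips as a block 1181 genes rose and 949 fell, and within the labels' chips alone the counts were 257 and 105 on chip 1, and 334 and 217 on chip 2. With the chips found by identical signals as a block they were 1383 and 1221, and within them 416 and 267 on chip 1, and 2570 and 2477 on chip 2, where replicate 1 is the only 15 h array. A lone array in such a fit is assumed to vary like the other groups. Without 15 h replicate 1 the counts were 1475 (13.4%) and 1251 (11.3%), with 1138 of the rises and 900 of the falls shared. Leaving out 24 h replicate 1 or 3 left 736 falls each time, beside 973 and 977 rises. The plot of change against level sets every gene tested side by side.

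**Figure D1:**
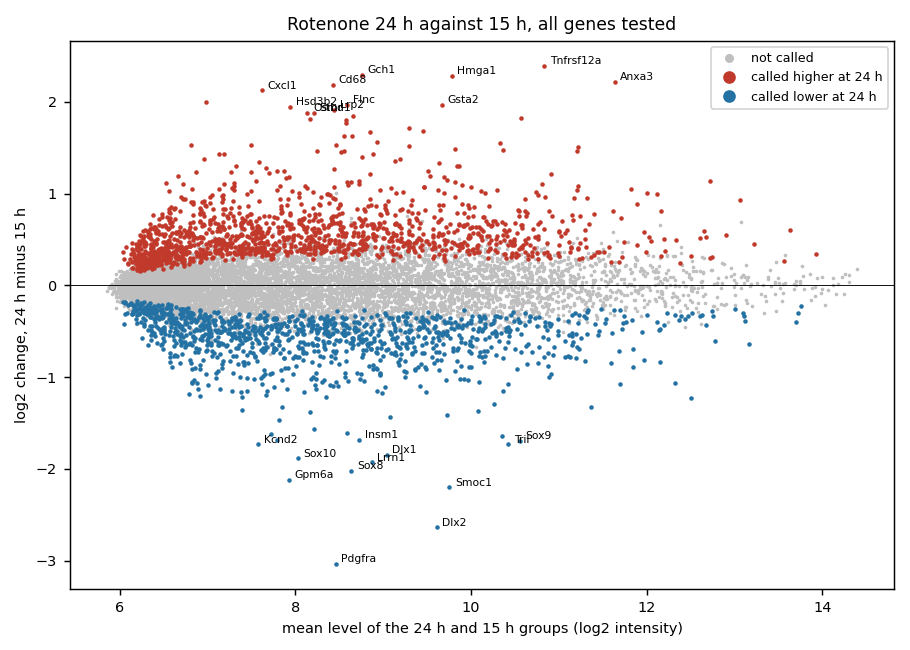
Change of each of the 11039 genes tested (vertical axis, log2 change, 24 h minus 15 h) against its mean level over both groups (horizontal axis, log2 intensity). Red and blue points are genes called higher and lower at 24 h, and the 12 largest rises and falls are named; the falls of Pdgfra and Dlx2 (−3.03 and −2.64) exceed every named rise, of which Tnfrsf12a is the largest (2.39).

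The largest rise was that of Tnfrsf12a, the cell-surface receptor for the cytokine TWEAK. Its levels were 12.05, 12.06 and 11.98 (log2 intensity, as for every level below) at 24 h, against 9.21, 9.83 and 9.87 at 15 h. All 24 h arrays lay above all 15 h arrays, and the change was 2.39 ± 0.26, or 5.25-fold (adjusted p = 1.1e-05; ± marks the standard error from limma, on the log2 scale throughout). Its mean was 7.32 in controls and 8.07 at 8 h, but it was not among the 16 genes called higher at 8 h than in controls. Gch1, whose product GTP cyclohydrolase makes the first step of tetrahydrobiopterin synthesis, had 10.04, 9.77 and 9.90 at 24 h, against 7.82, 7.48 and 7.52 at 15 h. It rose 4.90-fold (2.29 ± 0.15, adjusted p = 5.8e-08), and its other probe rose by 1.46.

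Hmga1 encodes a protein that bends DNA and opens chromatin. At 24 h it had 10.94, 10.78 and 11.05, against 8.58, 8.67 and 8.69 at 15 h, a rise of 2.28 ± 0.10 (4.85-fold, adjusted p = 1.5e-09). Control arrays averaged 8.55 ± 0.10 (SD, n = 4) and 8 h arrays 8.33 ± 0.06 (SD, n = 3), so the level moved late. Anxa3, a calcium-dependent membrane-binding annexin, had 12.78, 12.66 and 12.80 at 24 h, against 10.37, 10.64 and 10.57 at 15 h, and rose by 2.22 ± 0.16 (adjusted p = 9.8e-08). Its controls averaged 8.08, so the rise between 15 h and 24 h added to an earlier one. Cxcl1, a chemokine that draws neutrophils, had 8.83, 8.55 and 8.67 at 24 h, against 6.91, 6.34 and 6.42 at 15 h. It rose by 2.12 ± 0.13 (adjusted p = 3.3e-08) from levels at 15 h close to the control mean of 6.29.

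The other genes among the 12 largest rises changed by 1.88 to 1.97 on the log2 scale. A call and no overlap between the 24 h and 15 h arrays were conditions for this ranking. They were Flnc, an actin-crosslinking filamin (1.97), Gsta2, a glutathione transferase (1.97, other probe 1.85), the steroid dehydrogenase gene Hsd3b2 (1.94), Lrp2, the endocytic receptor megalin (1.91), Osmr, the receptor chain for oncostatin M (1.88), and Stbd1, which tethers glycogen to membranes (1.88). The second probe of Hsd3b2 was at −0.03, so its probes disagree. Cd68 belongs to this group too and is described with the microglial markers.

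**Figure D2:**
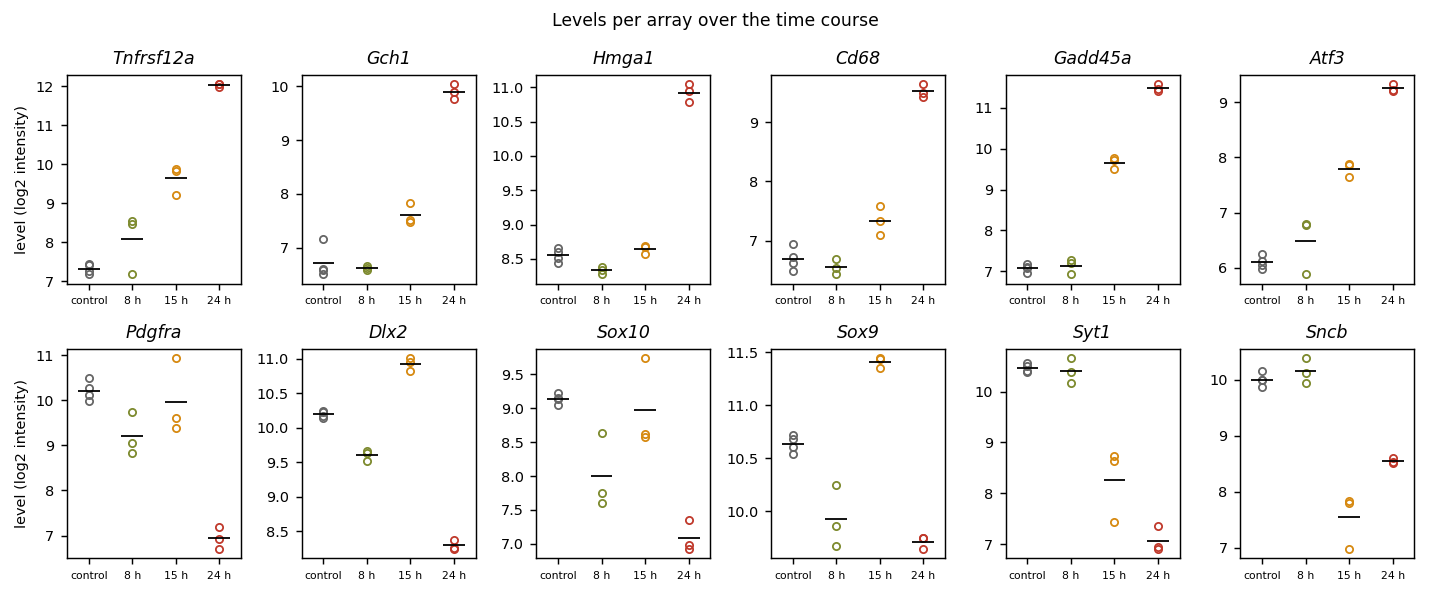
Levels of 12 genes (vertical axes, log2 intensity) on every array of the controls, 8 h, 15 h and 24 h groups; circles are arrays and bars are group means. Pdgfra, Dlx2, Sox10 and Sox9 are lower at 24 h than at 15 h although their 15 h arrays lie near or above the controls, and 15 h replicate 1 is the separate circle in Pdgfra, Sox10, Syt1 and Sncb.

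Among the 11039 genes tested, 125 were called higher at 24 h and detected on no array at 15 h. Only a lower bound can be given for their change. Such a gene, if undetected in the other groups too, passed the detection filter only through the 24 h arrays. Its call is then no separate support for a rise. Ecel1, a neuronal metallopeptidase that is known to be induced by nerve injury, had 7.95, 7.85 and 8.13 at 24 h, against 5.78, 6.09 and 6.07 at 15 h. It was at least 3.33-fold higher (adjusted p = 5.5e-09), but it was detected on all control arrays at a mean of 6.47. Artn, the GDNF-family growth factor artemin, was detected on no control, 8 h or 15 h array, and so passed the filter only through its 24 h arrays. At 24 h it had 7.57, 7.64 and 7.53, against 5.99, 6.14 and 6.03 at 15 h, and was at least 2.53-fold higher (adjusted p = 1.9e-09; other probe 0.48). The cytokine gene Il11 was at least 2.02-fold higher (adjusted p = 5.0e-08), with 7.27, 7.37 and 7.14 at 24 h, against 6.14, 6.04 and 6.02 at 15 h. The olfactory receptor gene Olfr156 (at least 1.80-fold) and Bves, which encodes a membrane protein of muscle (at least 1.77-fold), completed the 5 largest bounds.

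Every list count below stands beside the shares of all genes tested, 12.3% higher and 10.2% lower. Genes of the integrated stress response rose together: 12 of 20 measured members were higher at 24 h and none was lower, with a median change of 0.69, beside 12.3% higher and a median of −0.0045 over all genes tested. Median scaling kept 8 as higher, without 15 h replicate 1 11 were higher and 1 lower, and without 15 h replicate 3 1 was lower. Ppp1r15a, whose product GADD34 restores translation by dephosphorylating eIF2α, had 9.75, 9.59 and 9.70 at 24 h, against 7.51, 8.26 and 8.26 at 15 h. It rose by 1.67 ± 0.18 (adjusted p = 1.1e-05). The transcription factor gene Atf3 had 9.22, 9.33 and 9.20 at 24 h, against 7.64, 7.88 and 7.86 at 15 h, and rose by 1.46 ± 0.18 (adjusted p = 3.5e-05). Its 8 h and control means were 6.49 and 6.10. The secreted stress factor Gdf15 had 10.57, 10.37 and 10.67 at 24 h, against 8.87, 9.66 and 9.88 at 15 h, a rise of 1.07 ± 0.19 (adjusted p = 8.0e-04). In all 3 of these genes 15 h replicate 1 was the lowest 15 h array.

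Atf4, the central activator of the response, had 12.02, 12.04 and 12.03 at 24 h, against 10.87, 11.39 and 11.40 at 15 h (0.81 ± 0.17, adjusted p = 0.0029; other probe 0.10). Fgf21, a secreted metabolic hormone, was detected on 1 of 3 arrays at 15 h and on all at 24 h, and rose by 0.73 ± 0.07 (adjusted p = 2.3e-06). Chac1, which degrades glutathione, had 11.53, 11.48 and 11.61 at 24 h, against 10.82, 10.79 and 10.71 at 15 h (0.76 ± 0.20, adjusted p = 0.012). Ddit3, the gene of the pro-death factor CHOP, had 11.25, 11.30 and 11.36 at 24 h, against 10.00, 10.72 and 10.91 at 15 h, and rose by 0.76 ± 0.24 (adjusted p = 0.030). This call was lost when any 24 h array or 15 h replicate 1 was left out, and with median scaling (0.59). Chac1 also lost its call with median scaling (0.58).

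2 effectors of the same programme did not pass the test. Trib3, a pseudokinase induced by ATF4 and CHOP, had 8.38, 8.34 and 8.53 at 24 h, against 7.36, 8.21 and 8.36 at 15 h (0.44 ± 0.18, adjusted p = 0.098). Nupr1, a small stress-induced chromatin protein, had 10.23, 10.34 and 10.32 at 24 h, against 9.64, 10.18 and 10.22 at 15 h (0.28 ± 0.15, adjusted p = 0.20). Both had control means near 6 (6.01 for Trib3 and 6.40 for Nupr1), so most of their distance from control was present at 15 h. In Trib3 the groups overlapped. Amino acid transporters had 2 of 9 members higher and none lower, Slc1a5 (0.94 ± 0.14, other probe 0.00) and Slc38a2 (0.59 ± 0.19), and leaving out any 15 h or 24 h array gave 1 to 4. Aminoacyl-tRNA synthetases, which charge tRNAs with amino acids, had 6 of 15 higher and none lower, led by Wars (1.1 ± 0.14) and Nars (0.69 ± 0.11). Their count was 2 or 3 without any one of the 24 h arrays and 2 with median scaling. Of 13 genes of serine, asparagine, proline and one-carbon synthesis only Mthfd1l was called (0.99 ± 0.15), and 2 were without 15 h replicate 1 or 2.

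The promoters of 4 of these genes hold the composite C/EBP-ATF letters TGATGNAA, through which ATF4 and CHOP are known to bind with C/EBP partners. They are shown because 2 of the genes passed the test between 15 h and 24 h (Atf3 and Chac1) and 2 did not (Nupr1 and Trib3). Each runs 5′ to 3′ from upstream of the annotated start to a short way past it, from RefSeq on build GRCm38.p6, and the capitals mark the motif, here found on the opposite strand. Positions are relative to the annotated start, with upstream bases negative and no position 0. The motif begins at −110 in Atf3, −193 in Chac1, −110 in Nupr1 and 15 in Trib3.
Atf3, chr1:191183284-191183583, minus strand: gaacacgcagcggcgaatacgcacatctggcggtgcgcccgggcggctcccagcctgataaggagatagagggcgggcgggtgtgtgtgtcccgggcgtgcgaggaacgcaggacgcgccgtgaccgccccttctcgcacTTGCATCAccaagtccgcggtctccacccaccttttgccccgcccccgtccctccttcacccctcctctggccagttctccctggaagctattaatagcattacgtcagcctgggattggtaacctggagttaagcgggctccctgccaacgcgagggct
Chac1, chr2:119350992-119351291, plus strand: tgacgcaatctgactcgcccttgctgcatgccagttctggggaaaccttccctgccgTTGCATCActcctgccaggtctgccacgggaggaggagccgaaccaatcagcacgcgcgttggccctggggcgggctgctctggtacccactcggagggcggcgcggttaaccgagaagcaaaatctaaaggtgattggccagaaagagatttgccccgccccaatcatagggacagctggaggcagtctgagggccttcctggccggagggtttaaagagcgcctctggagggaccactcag
Nupr1, chr7:126625421-126625720, minus strand: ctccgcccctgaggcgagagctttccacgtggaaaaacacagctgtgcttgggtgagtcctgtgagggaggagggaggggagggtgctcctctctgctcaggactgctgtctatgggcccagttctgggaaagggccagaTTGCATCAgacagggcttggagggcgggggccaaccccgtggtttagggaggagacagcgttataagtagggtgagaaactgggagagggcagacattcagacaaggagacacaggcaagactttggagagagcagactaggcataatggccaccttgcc
Trib3, chr2:152344011-152344310, minus strand: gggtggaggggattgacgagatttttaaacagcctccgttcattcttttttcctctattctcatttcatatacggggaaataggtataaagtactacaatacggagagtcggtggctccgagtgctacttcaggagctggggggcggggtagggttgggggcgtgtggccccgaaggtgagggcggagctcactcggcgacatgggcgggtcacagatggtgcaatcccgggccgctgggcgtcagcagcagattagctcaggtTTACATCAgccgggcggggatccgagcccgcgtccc

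The C/EBP-ATF letters, searched on both strands, stood in 2.44% of the 8664 promoters of genes tested, in 1.63% of those of the genes that rose at least 1.5-fold and in 0.621% of those of the genes that fell as far. The AP-1 letters TGANTCA, which FOS and JUN family dimers are known to bind, stood in 5.24% of all, 6.23% of the risers and 2.80% of the fallers. For the full palindrome TGACGTCA bound by ATF and CREB factors the shares were 3.27%, 3.79% and 1.55%. For the antioxidant response letters TGACNNNGC, which can overlap an AP-1 match, they were 14.3%, 14.1% and 11.8%. These shares describe letters in a short window and not binding.

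Actin-linked genes and targets of serum response factor, which build stress fibres and remodel the cell cortex, had 17 of 27 members higher and none lower, with a median of 0.63, and 14 were higher with median scaling. Without 15 h replicate 3 1 was lower. S100a10, an annexin partner, had 9.17, 9.09 and 9.45 at 24 h, against 7.56, 7.77 and 7.77 at 15 h (1.53 ± 0.13, adjusted p = 7.0e-07). S100a11 had 7.98, 7.76 and 7.93 at 24 h, against 6.59, 6.70 and 6.68 at 15 h (1.23 ± 0.11, adjusted p = 1.2e-06). Moesin, which ties actin to the membrane, is encoded by Msn and had 9.11, 9.14 and 9.19 at 24 h, against 8.17, 7.99 and 8.00 at 15 h (1.09 ± 0.10, adjusted p = 1.2e-06). The galectin genes Lgals3 (1.51) and Lgals1 (1.1) and the matricellular genes Ccn2 (1.46) and Ccn1 (1.18) also rose. On every 24 h array the mean of the 27 members was 1.54 to 1.58 above the control mean, against 0.86 to 0.90 at 15 h.

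Extracellular matrix and integrin genes had 21 of 58 members higher and 2 lower. The array held 93 listed members, and those outside the 58 were detected on too few arrays for a test. Of the 58, 45 were detected on all 3 arrays at 24 h and 37 at 15 h. The limit given above for genes that passed the filter only through the 24 h arrays applies here too. The number higher was 11 without 24 h replicate 3 and 12 with median scaling. Itga3, an integrin that binds laminin, had 8.49, 8.47 and 8.53 at 24 h, against 7.50, 7.12 and 7.14 at 15 h (1.25 ± 0.14, adjusted p = 1.3e-05). The collagen gene Col8a1 rose by 0.88 ± 0.08 and the collagen gene Col18a1 by 1.13. The members that fell were the membrane-type metalloproteinase genes Mmp14 (−1.0) and Mmp17 (−0.96 ± 0.13).

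NRF2 targets had 11 of 28 members higher and none lower, with a median of 0.38. With median scaling 9 were higher and 1 lower, and without 15 h replicate 3 1 was lower. Pgd, an enzyme of the pentose phosphate pathway that makes NADPH, had 11.73, 11.80 and 11.75 at 24 h, against 10.43, 10.77 and 10.84 at 15 h (1.08 ± 0.11, adjusted p = 3.9e-06). The glutathione transferase gene Gsta3 had 9.02, 8.94 and 9.28 at 24 h, against 7.93, 7.77 and 7.73 at 15 h (1.27 ± 0.14, adjusted p = 8.4e-06). Abcc4, an exporter of organic anions, rose by 1.02 ± 0.11. Hmox1, the haem-degrading enzyme that is the best-known target, was at 13.38, 13.48 and 13.40 at 24 h, against 12.54, 12.80 and 12.85 at 15 h. Its change of 0.69 ± 0.28 did not pass (adjusted p = 0.095), although the groups did not overlap. Its control arrays varied more (8.73 ± 0.60, SD, n = 4), and in the fit on the 6 arrays of 15 h and 24 h alone it was called.

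Among other stress genes, 5 of 17 cytosolic heat shock genes were higher and none lower. With median scaling 3 were higher and 1 lower, and without 15 h replicate 2 or 3 1 was lower. Hspb1, a small chaperone of actin, had 8.30, 8.35 and 8.11 at 24 h, against 6.73, 6.77 and 6.69 at 15 h (1.53 ± 0.09, adjusted p = 2.1e-08). Cryab (0.88 ± 0.15) and Hspb8 (0.81 ± 0.16), also small chaperones, rose as well. Of 16 folding genes of the endoplasmic reticulum only Hspa5, its main chaperone, passed (0.43 ± 0.11, adjusted p = 0.0082), and it lost its call with median scaling (0.31). Mitochondrial chaperones and proteases had 4 of 12 higher and none lower, among them Lonp1 (0.68 ± 0.13) and Hspd1 (0.44 ± 0.08). Median scaling left 2 higher and 1 lower, and no scaling none higher and 1 lower.

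**Figure D3:**
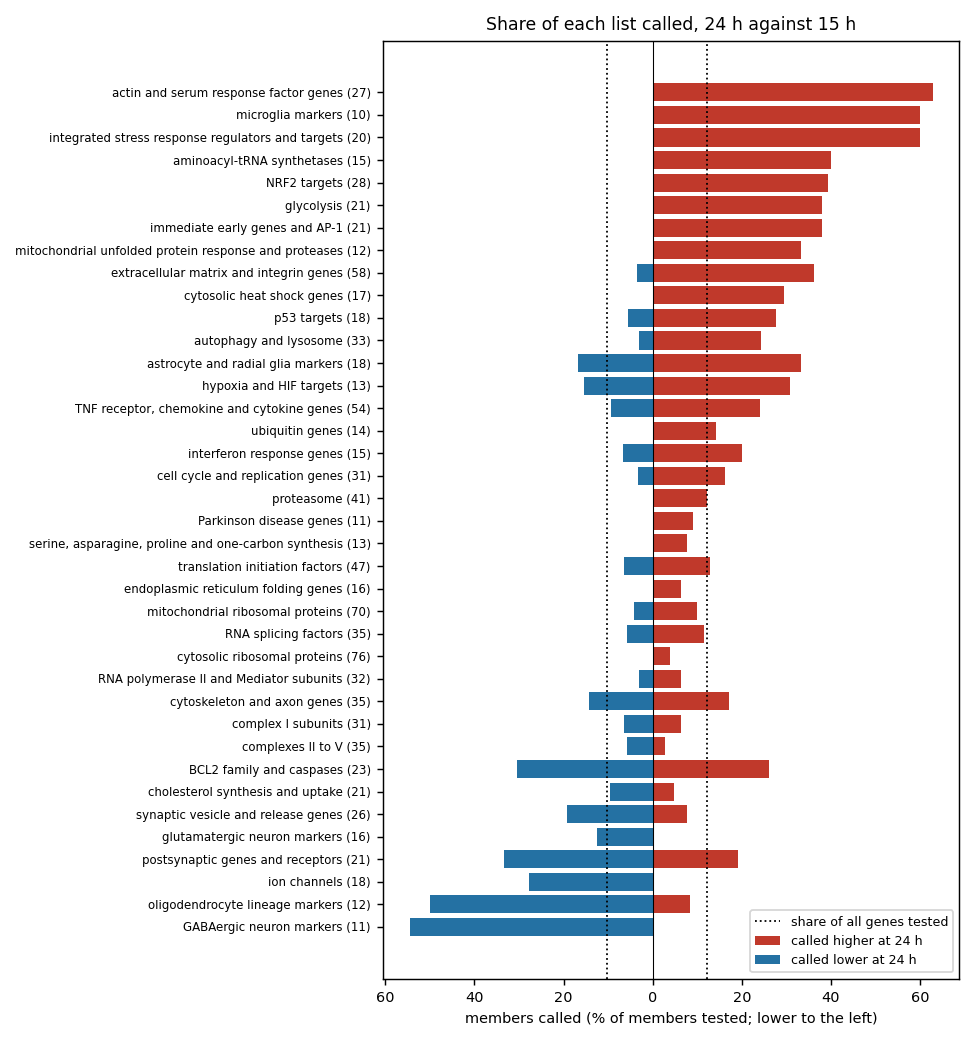
Share of the tested members of each gene list with at least 10 of them (percent, number tested in brackets) called higher (red, right) and lower (blue, left) at 24 h than at 15 h. Dotted lines mark the shares of all genes tested, 12.3% higher and 10.2% lower; actin genes, microglia markers and the integrated stress response reach the furthest right, GABAergic and oligodendrocyte lineage markers the furthest left.

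Glycolysis genes had 8 of 21 members higher and none lower. The count was 5 without 24 h replicate 1, 7 with 2 lower without 15 h replicate 1, and 2 with 1 lower under median scaling. Hk2, the inducible hexokinase, had 10.32, 10.20 and 10.37 at 24 h, against 9.24, 8.69 and 8.98 at 15 h (1.33 ± 0.15, adjusted p = 1.4e-05). The glucose transporter gene Slc2a1 had 11.74, 11.77 and 11.66 at 24 h, against 11.40, 10.32 and 10.33 at 15 h, where replicate 1 stood well above its group (1.04 ± 0.26, adjusted p = 0.0091). Hk2 averaged 6.89 in controls, 7.27 at 8 h and 8.97 at 15 h, and Slc2a1 averaged 7.93, 8.22 and 10.68 in the same order. Ldha, the lactate dehydrogenase subunit, took another course: 11.18, 11.11 and 11 at 24 h lay above 9.97, 10.57 and 10.75 at 15 h (0.67 ± 0.14, adjusted p = 0.0034), and both groups lay under the control mean of 11.68. Its call was lost with median scaling (0.47). Of 13 hypoxia-linked genes 4 rose, among them Ero1a (0.78 ± 0.10), and 2 fell, the prolyl hydroxylase gene Egln3 (−0.97 ± 0.15) and Mxi1 (−0.77). 2 rose without 15 h replicate 2, and 1 fell without any one of the 24 h arrays.

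Immediate early and AP-1 genes, which follow growth factor and stress signals, had 8 of 21 members higher and none lower (7 and none with median scaling, 9 and 1 without 15 h replicate 1). Ier3 had 10.24, 10.36 and 10.28 at 24 h, against 8.91, 8.50 and 8.42 at 15 h (1.68 ± 0.13, adjusted p = 1.9e-07). The AP-1 gene Fosl2 rose by 1.63, and Dusp6, a phosphatase that switches off ERK, by 1.14 ± 0.14. Fos itself had 9.69, 9.61 and 9.63 at 24 h, against 9.09, 8.78 and 8.81 at 15 h (0.75 ± 0.67, adjusted p = 0.47). The controls and the 8 h arrays of Fos were widely spread (SD 1.16 and 1.76), and it was called in the fit on the 6 arrays alone.

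Receptors and ligands of the tumour necrosis factor, chemokine and cytokine families had 13 of 54 members higher and 5 lower. The array held 132 listed members, and those outside the 54 were detected on too few arrays for a test. Of the 54, 47 were detected on all 3 arrays at 24 h and 35 at 15 h. The call of a member that passed the filter only through its 24 h arrays is no separate support for a rise. Besides Tnfrsf12a, Cxcl1 and Il11, the risers included the death receptor gene Tnfrsf1a (1.19) and the adhesion gene Icam1 (0.79). Il11 was detected on no 15 h array, so the limit given above for such genes applies to its call. The fallers included Il17rd (−1.0) and Tnfrsf19 (−0.68). The number lower was 3 without 24 h replicate 1 or 2, and with no scaling 5 were higher and 5 lower. Interferon response genes had 3 of 15 higher and 1 lower, beside 12.3% and 10.2% of all genes tested. The risers were Isg15 (0.90 ± 0.08), Bst2 (0.73 ± 0.13) and Ifi27 (0.53 ± 0.12). Without 15 h replicate 1 5 were higher, and without 24 h replicate 2 or 3 none was lower.

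Of 23 members of the BCL2 family and the caspases 6 were higher and 7 lower. With median scaling 3 were higher and 6 lower, and with no scaling none was higher and 7 lower. The number lower was 2 to 4 without any one of the 24 h arrays or without 15 h replicate 3. The protective genes Bcl2l1 (0.78) and Mcl1 (0.35) rose together with the pro-death gene Bid (0.64 ± 0.11) and the calpain gene Capn2 (0.62 ± 0.10). The pro-death gene Bcl2l11 fell by 0.48 ± 0.10, and the caspase genes Casp2 (−0.61), Casp6 (−0.49) and Casp9 (−0.47) fell. Casp8, the initiator caspase of death receptors, rose by 0.32 ± 0.07.

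Targets of p53 had 5 of 18 members higher and 1 lower, 2 and 1 with median scaling, 3 higher without 24 h replicate 1 or 15 h replicate 2, and 2 lower without 15 h replicate 1. Gadd45a, a growth arrest gene, had 11.41, 11.46 and 11.58 at 24 h, against 9.50, 9.71 and 9.76 at 15 h. It rose by 1.82 ± 0.12 (3.54-fold, adjusted p = 4.5e-08) and kept its call under every alternative. The death receptor gene Fas had 7.79, 7.82 and 7.81 at 24 h, against 7.32, 7.17 and 7.23 at 15 h (0.57 ± 0.09, adjusted p = 4.1e-04). Sesn1 fell by 0.71 ± 0.13. The cell cycle inhibitor gene Cdkn1a had 11.20, 11.02 and 10.78 at 24 h, against 10.36, 10.69 and 10.75 at 15 h (0.40 ± 0.17, adjusted p = 0.10, other probe 0.88). Bbc3, the gene of PUMA, had 6.22, 6.51 and 6.41 at 24 h, against 6.34, 6.51 and 6.59 at 15 h, with overlapping groups (−0.10 ± 0.09, adjusted p = 0.45). Of 31 cell cycle genes 5 were higher and 1 lower, beside 12.3% and 10.2% of all genes tested. The risers included Ccnd1 (1.24 ± 0.12) and the replication licensing gene Cdt1 (1.06 ± 0.15), and the faller was Plk1 (−0.84). With median scaling 2 were higher and 1 lower. 3 were higher without 24 h replicate 3, and none was lower without 24 h replicates 1 or 3 or 15 h replicate 1.

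Markers of microglia rose in 6 of 10 tested members and fell in none, with a median of 0.38, 2 rose with median scaling and 1 with no scaling. Another 7 of the 17 listed markers, among them Csf1r, Cx3cr1, Itgam and P2ry12, did not reach the 3 detected arrays needed for a test. The summed signal of the 10 lay between 4036 and 4291 at 24 h, against 2292 to 3212 at 15 h, and between 1362 and 1538 in controls. Cd68, a lysosomal membrane protein of phagocytes, had 9.43, 9.50 and 9.64 at 24 h, against 7.58, 7.34 and 7.10 at 15 h, and rose 4.55-fold (2.18 ± 0.14, adjusted p = 3.4e-08). The lysozyme gene Lyz2 (0.55 ± 0.12) and the phagocyte receptor gene Trem2 (0.52 ± 0.12) rose by less, and Lyz2 lost its call with median scaling (0.39). Cd68 also counts among 33 genes of autophagy and the lysosome, of which 8 rose, including the proteases Ctsd (0.76 ± 0.13) and Ctsb (0.53 ± 0.08), and 1 fell. With median scaling 4 rose and 2 fell. The number that fell was 0 without any one of the 24 h arrays or 15 h replicate 2, 3 without 15 h replicate 1 and 2 without 15 h replicate 3.

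The promoters of Cd68 and of Osmr, both among the 12 largest rises, hold AP-1 letters (capitals). They are printed as examples of a motif whose binding proteins are encoded by genes of the immediate early list. The promoters of Tnfrsf12a, Gch1, Hmga1, Cxcl1, Flnc, Gsta2, Hsd3b2, Lrp2 and Stbd1, also among these rises, hold no AP-1 letters. A link between these letters and the rises was not tested. The matches begin at −149 and −24 in Cd68 and at 4 in Osmr.
Cd68, chr11:69666121-69666420, minus strand: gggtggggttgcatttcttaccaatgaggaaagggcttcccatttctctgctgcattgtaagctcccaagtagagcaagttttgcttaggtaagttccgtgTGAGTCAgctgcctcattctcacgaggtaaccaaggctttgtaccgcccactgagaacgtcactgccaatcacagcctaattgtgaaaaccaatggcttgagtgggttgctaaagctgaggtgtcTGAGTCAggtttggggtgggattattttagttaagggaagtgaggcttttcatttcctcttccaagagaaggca
Osmr, chr15:6874264-6874563, minus strand: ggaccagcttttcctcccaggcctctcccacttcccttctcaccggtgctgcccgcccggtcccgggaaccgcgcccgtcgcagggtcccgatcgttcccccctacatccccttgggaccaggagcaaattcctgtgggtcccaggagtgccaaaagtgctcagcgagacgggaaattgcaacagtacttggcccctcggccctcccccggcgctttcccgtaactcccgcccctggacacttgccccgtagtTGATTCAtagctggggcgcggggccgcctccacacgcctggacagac

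Astrocyte and radial glia markers did not move as a block: 6 of 18 were higher and 3 lower. Gfap, the intermediate filament of astrocytes, had 8.33, 8.17 and 8.51 at 24 h, against 7.39, 7.60 and 7.66 at 15 h (0.79 ± 0.19, adjusted p = 0.0083). Nes, a filament of progenitors and reactive astrocytes, had 9.58, 9.48 and 9.32 at 24 h, against 7.76, 8.17 and 8.25 at 15 h (1.40 ± 0.16, adjusted p = 1.8e-05). Lcn2, a secreted protein of reactive astrocytes, was detected on no 15 h array and was at least 1.35-fold higher at 24 h (adjusted p = 3.9e-06). The transcription factor gene Sox9 went the other way, at 9.75, 9.75 and 9.65 at 24 h, against 11.44, 11.35 and 11.43 at 15 h (−1.69 ± 0.12, adjusted p = 1.3e-07), and Hes5 (−1.47) and the water channel gene Aqp4 (−0.62) fell too. Summed over the 18 members, the signal was 46127 to 46582 at 24 h, against 44364 to 47691 at 15 h, with overlapping groups.

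Fibroblast and smooth muscle markers had 3 of 7 members higher, Acta2 (1.14 ± 0.23), Fn1 (1.03 ± 0.13) and Tagln (0.63 ± 0.09), and 1 lower, Pdgfrb (−0.31), which was called under none of the fits without 24 h replicate 1 or 2 or without any one of the 15 h arrays. Acta2 and Tagln are also on the actin list. The summed signal was 10840 to 11960 at 24 h, against 5423 to 5987 at 15 h. The markers Col1a1, Col1a2, Col3a1, Lum and Postn did not reach the 3 detected arrays needed for a test. Of 5 endothelial and pericyte markers 2 rose, Flt1 (0.57 ± 0.08) and Kcnj8 (detected on no 15 h array, at least 1.31-fold), at a summed signal of 426 to 447 at 24 h, against 371 to 380 at 15 h. None of 3 red blood cell markers was called. The part of these cell types in the rises above was not tested.

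The largest fall was that of Pdgfra, the growth factor receptor that defines oligodendrocyte precursors. It had 6.71, 7.19 and 6.93 at 24 h, against 10.94, 9.39 and 9.60 at 15 h, and fell by 3.03 ± 0.31 (8.18-fold lower, adjusted p = 5.0e-06), with 15 h replicate 1 well above the other 15 h arrays. Sox10, a master transcription factor of the lineage, showed the same layout, with 6.93, 7.35 and 6.99 at 24 h, against 9.74, 8.57 and 8.62 at 15 h (−1.88 ± 0.28, adjusted p = 1.4e-04). Olig1 had 11.85, 11.99 and 11.85 at 24 h, against 13.44, 12.93 and 12.98 at 15 h (−1.22 ± 0.12, adjusted p = 4.0e-06). Each of these 3 genes kept its call under every alternative, including without 15 h replicate 1.

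Counted as a list, 6 of 12 oligodendrocyte lineage markers fell and 1 rose, with a median of −0.37, beside 10.2% lower over all genes tested. Median scaling gave the same counts, and without 15 h replicate 1 6 fell and 2 rose. The other fallers were Gpr17 (−0.97) and Olig2 (−0.69), which mark precursors, and Ugt8a (−0.36), an enzyme of myelin lipid synthesis. Ugt8a was detected on no 24 h array, so only a lower bound could be given for the size of its fall. The riser was Enpp6 (0.89 ± 0.10), which marks newly formed oligodendrocytes. The summed signal of the 12 was 5037 to 5599 at 24 h, against 10103 to 15603 at 15 h and 12145 to 13139 in controls. Sox8, a close relative of Sox10, had 7.70, 7.60 and 7.59 at 24 h, against 9.74, 9.60 and 9.61 at 15 h (−2.02 ± 0.15, adjusted p = 1.9e-07).

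GABAergic neuron markers fell in 6 of 11 tested members and rose in none, with a median of −0.35. With median scaling 5 fell, and without 15 h replicate 1 6 fell. Dlx2, a homeobox gene that commits precursors to the interneuron fate, had 8.26, 8.37 and 8.25 at 24 h, against 10.83, 10.96 and 11.01 at 15 h (−2.64 ± 0.09, adjusted p = 7.6e-11). Its other probe was at −0.48. Its neighbour in the same gene family, Dlx1, had 8.01, 8.20 and 8.15 at 24 h, against 10.13, 9.87 and 9.91 at 15 h (−1.85 ± 0.12, adjusted p = 3.4e-08). The vesicular GABA transporter gene Slc32a1 had 7.91, 7.95 and 7.80 at 24 h, against 8.96, 8.97 and 9.02 at 15 h (−1.1 ± 0.13, adjusted p = 1.9e-05), and Pvalb (−1.16) and the GABA-synthesis gene Gad1 (−1.02) fell alike. The neuropeptide gene Sst had 8.32, 8.61 and 8.09 at 24 h, against 8.18, 8.64 and 8.68 at 15 h, with overlapping groups (−0.16 ± 0.14, adjusted p = 0.46). It had averaged 11.35 in controls and 10.06 at 8 h, so its low level was already present at 15 h.

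The summed signal of the GABAergic markers was 2928 to 3240 at 24 h, against 6689 to 7116 at 15 h, with the 8 h arrays at 7602 to 7828 and the controls at 10593 to 11921. Of 16 glutamatergic markers 2 fell, the vesicular glutamate transporter gene Slc17a6 and the deep-layer gene Fezf2, and none rose; without 15 h replicate 1 1 rose. Slc17a6 had 7.16, 7.42 and 7.04 at 24 h, against 8.29, 8.29 and 8.36 at 15 h (−1.11 ± 0.15, adjusted p = 7.2e-05), and Fezf2 changed by −0.75 ± 0.18. The summed signal of the glutamatergic markers was 4582 to 5092 at 24 h, against 5252 to 5880 at 15 h. The fall of the GABAergic list and that of the glutamatergic list were not tested against each other.

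The remaining genes among the 12 largest falls were Smoc1, a secreted matrix protein (−2.20 ± 0.10), Gpm6a, a neuronal membrane glycoprotein (−2.12 ± 0.30), Lrrn1, a neuronal leucine-rich repeat protein (−1.93 ± 0.14), Kcnd2, an A-type potassium channel (−1.73 ± 0.16), Tril, an accessory protein of Toll-like receptor signalling (−1.73 ± 0.15), and Insm1, a zinc-finger factor of neuronal progenitors (−1.68 ± 0.14). The second probe of Gpm6a was at −0.09 and that of Kcnd2 at −0.80. Smoc1 had 8.54, 8.88 and 8.54 at 24 h, against 10.95, 10.77 and 10.84 at 15 h. Tril had 9.49, 9.62 and 9.57 at 24 h, against 11.73, 11.11 and 11.04 at 15 h. In both the 15 h means lay above the control means (10.64 for Smoc1 and 10.46 for Tril) and the 24 h means below them.

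Among the 11039 genes tested, 57 were called lower and detected on no array at 24 h, and their largest bounds were small. St8sia4, which attaches polysialic acid to neural adhesion molecules, was at least 1.49-fold lower (adjusted p = 0.019), Smoc2 at least 1.48-fold (adjusted p = 4.9e-04), the collagen galactosyltransferase gene Colgalt2 at least 1.43-fold (adjusted p = 6.7e-05), Thsd7b at least 1.34-fold (adjusted p = 0.0014) and C130071C03Rik at least 1.34-fold (adjusted p = 4.0e-04). The call of St8sia4 was lost without 15 h replicate 1, whose level was 7.17 against 6.59 and 6.67 on the other 15 h arrays, without 24 h replicates 1 or 3, and with median scaling.

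**Figure D4:**
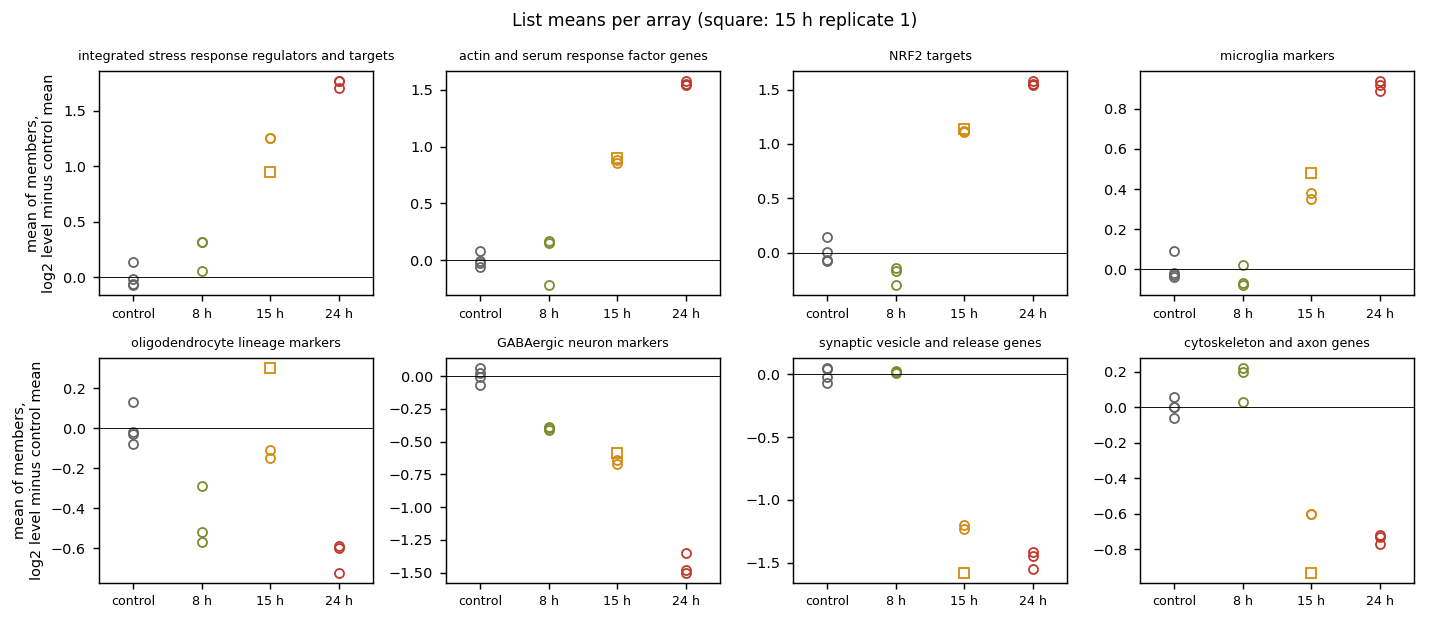
Mean of the members of 8 gene lists on every array (vertical axes, log2 level minus the control mean) in controls and after 8 h, 15 h and 24 h of rotenone. Squares mark 15 h replicate 1, which lies below the other 15 h arrays for synaptic vesicle genes (−1.58 against −1.20 and −1.23) and cytoskeleton genes, and above them for oligodendrocyte lineage markers (0.30 against −0.15 and −0.11).

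Genes of synaptic vesicles and release were already far below control at 15 h, and what they did next rested on 15 h replicate 1. Relative to controls the mean of the 26 members was −1.42, −1.45 and −1.55 on the 24 h arrays, against −1.58, −1.20 and −1.23 on the 15 h arrays. With all arrays 5 members fell and 2 rose, with a median of −0.15. Without 15 h replicate 1 11 fell and 1 rose, with a median of −0.24, and leaving out any other array of the 6 gave 2 or 3 falls, beside 1 rise without 24 h replicates 1 or 2. Syt1, the calcium sensor of release, had 7.35, 6.95 and 6.91 at 24 h, against 7.43, 8.74 and 8.64 at 15 h (−1.20 ± 0.25, adjusted p = 0.0028). Sv2b, a vesicle glycoprotein, fell by 1.13 ± 0.26. Syp, the gene of synaptophysin, had 8.99, 9.01 and 8.85 at 24 h, against 8.79, 9.71 and 9.71 at 15 h, with overlapping groups (−0.45 ± 0.19, adjusted p = 0.097). Without 15 h replicate 1 it was called, at −0.76.

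Sncb, the gene of β-synuclein, moved against its list. It had 8.60, 8.52 and 8.51 at 24 h, against 6.98, 7.81 and 7.83 at 15 h, and rose by 1.00 ± 0.18 (adjusted p = 8.7e-04) while staying under its control mean of 10.01. The probe of Snap25, another release gene, lay near the detection limit: it was detected on 1 array at 24 h and 3 at 15 h, and on no control array (mean 6.11). Its change was −0.09 ± 0.05 (adjusted p = 0.26). Of 35 cytoskeleton and axon genes 5 fell and 6 rose, beside 10.2% and 12.3% of all genes tested. With median scaling 5 fell and 1 rose. Without 15 h replicate 1 11 fell and 2 rose, and without any one of the 24 h arrays 1 to 3 rose; the number that fell was 3 without 24 h replicate 1 or 3 or without 15 h replicate 2. Map2, a dendritic microtubule protein, had 7.62, 7.78 and 7.65 at 24 h, against 8.81, 8.74 and 8.77 at 15 h (−1.09 ± 0.15, adjusted p = 1.2e-04), and its other probes gave −0.08 and −1.03. The axonal adhesion gene Cntn1 had 8.17, 8.43 and 8.10 at 24 h, against 9.22, 9.25 and 9.28 at 15 h (−1.02 ± 0.11, adjusted p = 6.8e-06). The tubulin gene Tuba1c rose by 0.74 ± 0.12.

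On the receiving side of the synapse 7 of 21 genes fell and 4 rose. The number that rose was 2 without 24 h replicate 2 or 15 h replicate 1 and 1 with median scaling, and 4 fell without 24 h replicate 3. Nlgn3, a neuroligin that organises synapses, had 6.87, 6.82 and 6.94 at 24 h, against 8.11, 7.93 and 8.06 at 15 h (−1.15 ± 0.12, adjusted p = 8.4e-06). Nlgn1 fell by 0.87 ± 0.14. Of 18 ion channel genes 5 fell and none rose, including Scn3b (−0.94 ± 0.21), a sodium channel subunit, and Kcna2 (−0.47 ± 0.08), a potassium channel; 3 fell without 24 h replicate 3.

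Subunits of complex I, the target of rotenone, stayed within narrow bounds. Of 31 subunits 2 rose, Ndufa12 (0.30 ± 0.09) and Ndufa1 (0.25 ± 0.08), and 2 fell, Ndufb11 (−0.40 ± 0.12) and Ndufv1 (−0.27), with a median of −0.11. With median scaling none rose and 8 fell, and without a single array the counts ran from 0 to 4. Of 35 subunits of complexes II to V 1 rose, the cytochrome c gene Cycs (0.33 ± 0.09), and 2 fell, Cox4i1 (−0.30 ± 0.09) and Atp5e (−0.33 ± 0.10). Without a single array 0 to 3 rose and 0 to 3 fell, with 3 of each without 15 h replicate 1. Mitochondrial ribosomal proteins had 7 of 70 higher and 3 lower, and 1 higher and 8 lower with median scaling. The number higher was 3 without 24 h replicates 1 or 3, and the number lower was 7 without 15 h replicate 1 and 5 without 15 h replicate 2. Mrps6 was the exception in size, with 11.53, 11.41 and 11.62 at 24 h, against 10.28, 10.36 and 10.30 at 15 h (1.21 ± 0.15, adjusted p = 3.3e-05). Cytosolic ribosomal proteins had 3 of 76 higher and none lower, by 0.30 to 0.34 on the log2 scale, and none higher and 3 lower with median scaling. 8 were higher without 15 h replicate 1, and 1 was lower without 15 h replicates 2 or 3.

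Several lists of cell machinery had shares of members higher near the 12.3% of all genes tested. The proteasome had 5 of 41 members higher, led by the activator gene Psme3 (1.13 ± 0.11), which returned to a 24 h mean near that of the controls (9.19 and 9.12). Translation initiation factors had 6 of 47 higher, led by Eif1a (0.88 ± 0.13), and 3 lower. Splicing factors had 4 of 35 higher, led by Sf3b4 (0.93 ± 0.19), and 2 lower, and RNA polymerase II and Mediator subunits 2 of 32 higher and 1 lower. Median scaling left 1, 2, 1 and 0 members of these 4 lists higher. The proteasome had 3 higher without 24 h replicates 1 or 2, and 1 lower without any one of the 15 h arrays. The initiation factors had 1 lower without 24 h replicates 2 or 3 or 15 h replicate 1, and the splicing factors 4 lower without 15 h replicate 1 and 1 without 24 h replicates 1 or 3 or 15 h replicate 3. The polymerase and Mediator subunits had 5 lower without 15 h replicate 1, none higher without 24 h replicates 1 or 3, and 1 higher without 24 h replicate 2. Of 21 cholesterol genes 1 rose, Msmo1 (0.71 ± 0.15), and 2 fell, Hmgcs1 (−0.22 ± 0.07) and Insig1, which restrains sterol synthesis. Insig1 had 7.80, 7.72 and 7.83 at 24 h, against 8.00, 8.39 and 8.41 at 15 h (−0.48 ± 0.15, adjusted p = 0.030), and its call was lost when any one of the 24 h arrays or 15 h replicates 2 or 3 was left out. For the list as a whole 4 fell without 15 h replicate 1, and 0 or 1 without any one of the others. None of 6 cholesterol efflux genes was called.

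Among histone genes, H3f3b, which encodes the replacement histone H3.3, had 12.44, 12.53 and 12.41 at 24 h, against 12.96, 12.85 and 12.88 at 15 h (−0.44 ± 0.10, adjusted p = 0.0055), and the linker histone gene H1f0 also fell by 0.44 ± 0.10. They were the 2 called of 9 tested on the list of linker and replacement histone genes. The list of replication-dependent histone genes held no member, so those genes were not assessed. The metallothionein gene Mt3 rose by 0.88 ± 0.17, while Mt1 and Mt2 did not pass, and the sign of both turned with median scaling (−0.11 and −0.03). Of the 5 metal response genes 2 rose without 15 h replicate 1. Mt1 had 14.34, 14.29 and 14.34 at 24 h, against 14.34, 14.19 and 14.34 at 15 h, values at the top of the scale that leave little room for a change (0.03 ± 0.11, adjusted p = 0.86). Mt2 had 10.02, 10.11 and 10.09 at 24 h, against 10.19, 9.85 and 9.71 at 15 h (0.16 ± 0.15, adjusted p = 0.52). Of 14 ubiquitin genes 2 rose, Usp14 and Uchl5 (0.43 ± 0.13 and 0.37 ± 0.13), and neither was called without any one of the 24 h arrays or without 15 h replicates 2 or 3. With median scaling none of the list was higher and 3 were lower. The groups overlapped for Uchl5, and without 15 h replicate 1 1 member of the list was lower. The mitochondrial protease gene Htra2 was the only one called of 11 Parkinson disease genes (0.67 ± 0.12); 2 were higher without 15 h replicate 3, and 1 was lower without 15 h replicate 1.

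The 8 h arrays and the controls share no array with the comparison of 24 h against 15 h, so the 2 contrasts can be set side by side. Both take the spread of each gene from the same fit, however, so genes with a small spread are favoured in both. At 8 h only 16 genes were higher (0.145% of those tested) and 32 lower (0.29%) than in controls. Of the 32 genes lower at 8 h, 13 (40.6%) were lower at 24 h than at 15 h, beside 10.2% of all genes tested. These 13 are 1.16% of the 1124. They include Sox9, Smoc1, Dlx2, Sox8, Gpr17, Id4, a repressor of differentiation factors, and Myt1, a neural zinc-finger gene; these last 2 were picked out after their values were seen. 3 of the 32 were higher, Gsta4, Tuba1c and Crhbp, beside 12.3% of all genes tested. Of the 16 genes higher at 8 h, 1 was also higher at 24 h than at 15 h, Msmo1, and 2 were lower, Insig1 and Cep170.

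Means over the whole course are given for 3 of the shared genes and for Sox10 and Pdgfra, which were not called at 8 h (adjusted p = 0.074 and 0.17 against controls). Dlx2 averaged 10.20 in controls, 9.60 at 8 h, 10.93 at 15 h and 8.29 at 24 h. Sox9 averaged 10.64, 9.93, 11.41 and 9.71 in the same order, and Sox8 9.16, 8.25, 9.65 and 7.63. Sox10 averaged 9.14, 8.00, 8.98 and 7.09, and Pdgfra 10.22, 9.21, 9.98 and 6.94. In each of these 5 genes the 8 h mean lay below the control mean, the 15 h mean above the 8 h mean, and the 24 h mean lowest of the 4. Parts of this course were fixed by the choice of genes. The 3 shared genes were chosen as lower in both contrasts, and Sox10 and Pdgfra are among the largest falls after 15 h. How many other genes take this course was not counted. The labels give no time for the controls, so time in culture and time with the drug cannot be told apart.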

How the data were processed

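RNA of 13 samples was measured on Illumina MouseRef-8 arrays. The deposited bead signals are intensity values with no normalization, per the file headers of the gene profile (BeadStudio 3.2.6). Detection was deposited as a fraction that rises to 1 as the detection p-value against negative controls nears 0. The normalized table of the authors holds a ratio of each signal to its array median and then to the control median, as recomputing showed (largest relative difference 3.75e-07).

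Groups came from the labels. Each array's detection was read through the profile array with identical signals (tolerance 0.05), which held another replicate of the same group for all 13 samples; 102 other profile columns were not used. Of 24613 probes with signal, 20514 were named by accession and 2554 by description. Signals were corrected with normexp (offset 50), quantile normalized and put on the log2 scale, in place of neqc, which needs detection p-values that the signal table does not carry. Probes detected on at least 3 of 13 arrays were kept, with the brightest probe per gene, leaving 11039 genes. limma 3.58.1 (R 4.3.3) fitted 4 groups on 13 arrays (9 residual degrees of freedom), with Benjamini-Hochberg adjustment over all genes and a threshold of 0.05. The scripts were tested on simulated data. The number of arrays limits the precision.

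Genes named are the 12 largest changes in each direction among called genes without overlap between the groups and detected in both. The 5 largest bounds in each direction and, per list, the 3 called members with the smallest p are named too. Fixed genes of these pathways were added, and other called list members are named as examples. A bound sets the brighter group against the detection limit or the dim probe's own signal, whichever is higher. The members and the 45 gene lists were chosen with earlier results of these data known. Same-numbered arrays did not deviate together (correlations −0.017, −0.086 and 0.030). Alternatives covered scaling, background, filter, probe choice, chips, replicate block, array weights and leaving out each array. Some members of the lists are counted but not reported by name here.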

Additional observations from a re-analysis of the deposited data

Results flagged for a closer look

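Levels of named genes and the mean signal of the arrays, 47 quantities in all, were tested in the controls. In 5 of them, all genes, 1 of the 4 control arrays lay far from the other 3 by Dixon's test. Chance does this in about 1 in 20 groups. Gch1 was at 7.17 on the outlying array, against 6.51, 6.58 and 6.60 on the others (log2 intensity). Gfap was at 8.12, against 7.23, 7.26 and 7.30. Bbc3 was at 6.45, against 6.24, 6.26 and 6.27. Fas was at 6.30, against 6.44, 6.44 and 6.45, and Gdf15 at 5.84, against 6.05, 6.06 and 6.07. Control arrays enter the comparison of 24 h with 15 h only through the shared estimate of the spread.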

How the results depend on the processing

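The counts of genes higher and lower at 24 h moved with scaling and with the arrays used. Genes higher numbered 601 with median scaling, 408 with no scaling and 686 in the authors' values. Within the labels' chips 257 were higher and 105 lower on chip 1 (362 in all) and 334 and 217 on chip 2 (551); within the chips of identical signals 416 and 267 on chip 1 (683) and 2570 and 2477 on chip 2 (5047). Array weights, which gave 15 h replicate 1 a weight of 0.11, called 2427 and 2371 (4798). Leaving out single arrays gave 973 to 1475 higher, 736 to 1251 lower and 1709 to 2726 in all. With the replicate block 1290 were higher and 1071 lower; the numbers do not pair the samples. The sign turned in 15 cases. On chip 2 of identical signals Uchl5 was at −0.02, Bbc3 0.03, Syp 0.22, Sst 0.28, Mt1 −0.03 and Mt2 −0.12. Mt1 was at −0.11 with median scaling, −0.15 with no scaling, −0.02 in the authors' values, −0.0044 with the labels' chips as a block, −0.03 on the labels' chip 2 and −0.02 to 0.06 without single arrays (−0.02 without 15 h replicate 2). Mt2 was at −0.03 with median scaling, −0.08 with no scaling and −0.0023 on the labels' chip 1. Of 1980 list counts under alternatives, 567 moved by over 1.5 times. The cause of these moves was not tested.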
